A study of Mus musculus with 33 samples.

Results

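The gene expression response of bone endothelial cells (EC) to irradiation was set against their response when blood cells were ablated, in 12 of the 33 RNA sequencing libraries of a study of mouse bone marrow endothelium. The 12 libraries are 3 each of irradiated bone EC, bone EC, Vav1 DTX EC and Vav1 control EC, listed in 2 of the study's 4 tables. For each gene the irradiation response is the mean of log2(FPKM + 1) in irradiated bone EC minus that in bone EC, and the ablation response is the mean in Vav1 DTX EC minus that in Vav1 control EC, where FPKM is the authors' read count scaled to gene length and library size. The difference of the responses is the irradiation response minus the ablation response. The tests cover 13779 of 38899 genes, those that reached 1 FPKM in 3 or more of the 12 libraries. Each response was formed within a table, because the tables were normalized separately. Levels set side by side across the tables are therefore a description only.

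All 4 groups were sorted as GFP+ cells from whole femur and tibia of C57BL/6 mice 8 to 12 weeks old that carried Cdh5-mTnG, a reporter of the endothelial gene Cdh5. Irradiated bone EC came from Cdh5-mTnG mice given 9 Gy, and bone EC from Cdh5-mTnG mice with no treatment named. Vav1 DTX EC and Vav1 control EC share their labels. The treatment of both is diphtheria toxin, and the genotype of both is given as Vav1-Cre R26-DTR Cdh5-mTnG. Their titles (Bone EC_DTX and Bone EC_ctrl) and column names (Vav1-Cre and Vav1-Cont) alone tell them apart, so which allele or agent the controls lacked is not stated. R26-DTR makes the toxin receptor wherever Cre has acted. The Vav1 promoter is active in blood cells, and Cre lines driven by it are known to act in some endothelial cells too, which limits the groups as a model of blood loss alone. The time between treatment and sorting is not given for any group, and neither is whether replicates came from separate mice, so that p-values measure the spread between these libraries, which may be technical.

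Diphtheria toxin stops protein synthesis in cells that carry its receptor, while ionizing radiation breaks DNA in every cell it reaches and activates the transcription factor p53, which induces genes of cell cycle arrest, repair and cell death. Both treatments remove blood cells from the marrow. Interferons, of which interferon gamma is made mainly by T and natural killer (NK) cells, act on endothelium through STAT factors and induce guanylate-binding proteins, immunity-related GTPases, antigen presentation genes and the chemokines Cxcl9 and Cxcl10.

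The reads recovered from the FPKM steps, in units of 1e6, came to 3.15 to 3.685 in irradiated bone EC, 2.716 to 3.256 in bone EC, 9.798 to 12.288 in Vav1 DTX EC and 8.584 to 10.142 in Vav1 control EC. The defining endothelial genes were present in every group, with Cdh5 at 180.2 to 200.3 FPKM in irradiated bone EC, against 64.1 to 93.7 FPKM in bone EC, and 21.8 to 56.0 FPKM in Vav1 DTX EC, against 18.2 to 28.5 FPKM in Vav1 control EC. The summed level of 18 pan-endothelial genes was 5744 to 7689 FPKM in irradiated bone EC, against 1985 to 2621 FPKM in bone EC. Vav1 DTX EC stood at 1637 to 3585 FPKM, against 1741 to 2155 FPKM in Vav1 control EC. RNA of blood cells was abundant in the sorted cells. The sum of 16 neutrophil genes was 1023 to 4509 FPKM in irradiated bone EC, against 47866 to 48257 FPKM in bone EC, and 36105 to 85348 FPKM in Vav1 DTX EC, against 87372 to 96841 FPKM in Vav1 control EC. The sum of 12 erythroid genes was 404 to 1033 FPKM in irradiated bone EC, against 42198 to 45752 FPKM in bone EC, and 1713 to 3273 FPKM in Vav1 DTX EC, against 44235 to 83599 FPKM in Vav1 control EC. In bulk samples fewer cells of a type and less RNA per cell cannot be told apart.

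**Figure D1:**
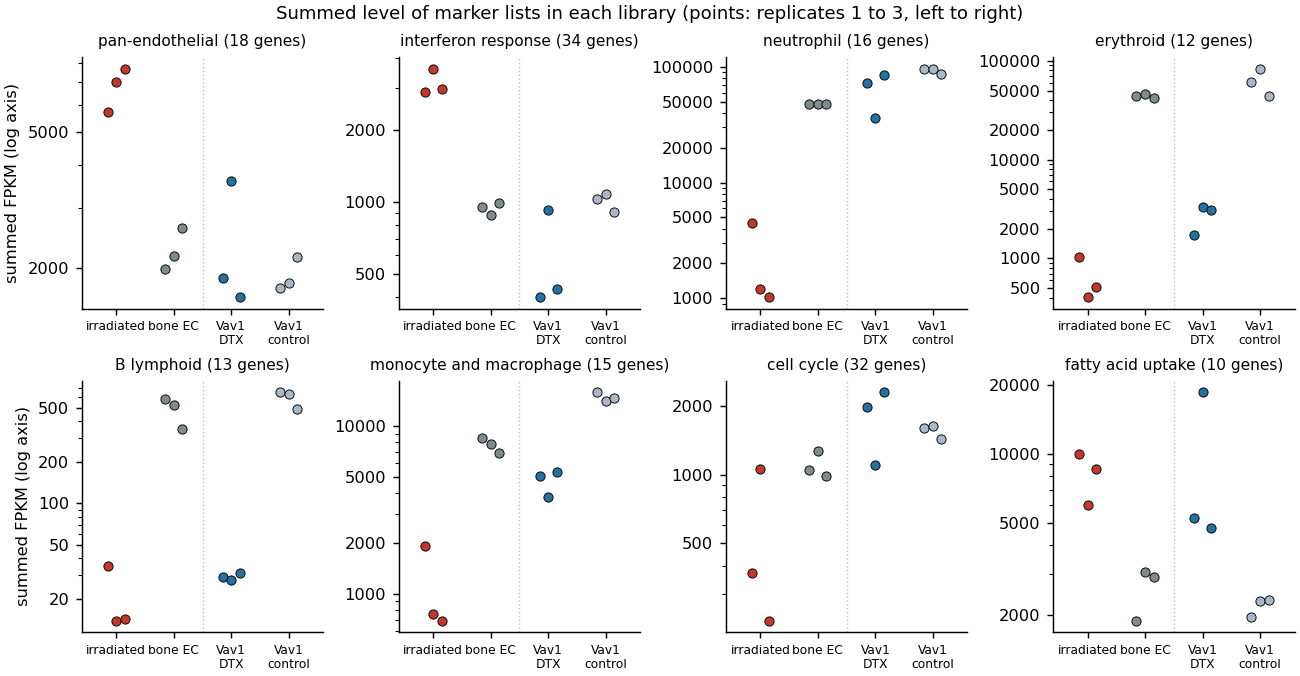
Summed FPKM (log axis) of 8 marker lists in each of the 12 libraries, with replicates 1 to 3 as points from left to right in irradiated bone EC, bone EC, Vav1 DTX EC and Vav1 control EC. The pan-endothelial sum is highest in the 3 irradiated libraries, and Vav1 DTX EC replicate 2 lies apart from the other Vav1 DTX EC libraries, with a pan-endothelial sum of 3585 FPKM and a neutrophil sum of 36105 FPKM.

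Replicate 2 of Vav1 DTX EC stood apart from its group. Its pan-endothelial sum was 3585 FPKM, beside 1863 and 1637 FPKM in replicates 1 and 3, and its neutrophil sum was 36105 FPKM, beside 72667 and 85348 FPKM. Irradiated replicate 1 had the highest neutrophil sum of its group, 4509 FPKM beside 1214 and 1023 FPKM. Results below that rest on Vav1 DTX EC replicate 2 are given with and without it. A second scaling, in which each library was divided by its mean pan-endothelial level, moved the median difference over all genes to -0.756 on the log2 scale from 0.0567 as deposited, and the medians of the irradiation and ablation responses to -0.964 and -0.15, from 0.0434 and 0. A gene whose response follows the endothelial share of the RNA therefore has about no change on that scaling. The mean of the pan-endothelial genes is held level by it, but not each gene. Of the 18, 2 still had a higher and 1 a lower irradiation than ablation response, against 279 and 4632 of the 13779 genes tested.

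The responses differed in 3684 of the 13779 genes (26.7%; limma, adjusted p below 0.05 by the method of Benjamini and Hochberg), with the irradiation response above the ablation response in 1883 (13.7%) and below it in 1801 (13.1%). Of the 3684 genes, 2306 passed the test in the irradiation response only, 687 in the ablation response only, 228 in both with the same direction, 268 in both with opposite directions and 195 in neither. Where both responses passed in the same direction and differed, the irradiation response was the larger in 164 of 228 genes. The irradiation response passed in 6174 genes, 3227 higher (23.4%) and 2947 lower (21.4%), and the ablation response in 3145, 1355 higher (9.83%) and 1790 lower (13.0%). A difference of over 2 on the log2 scale was found in 517 genes.

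Both responses were higher in 415 genes (3.01% of those tested), which are 12.9% of the genes higher after irradiation and 30.6% of those higher after ablation. Both were lower in 1036 genes (7.52%), which are 35.2% of the genes lower after irradiation and 57.9% of those lower after ablation. The 268 genes with opposite responses (1.94%) comprised 152 that were higher after irradiation and lower after ablation, and 116 that were lower after irradiation and higher after ablation. Of the 1451 shared genes, 1223 did not pass the test of the difference, and for 710 the 95% interval of the difference lay within 1 on the log2 scale on both sides, 240 of them higher in both and 470 lower in both. For the remaining shared genes the data do not bound the difference that closely. Across the 13779 genes the responses correlated with a Pearson r of 0.35 and a Spearman rho of 0.30, as a description, since genes are not independent replicates and the blood content of the libraries is shared by many of them. Without Vav1 DTX EC replicate 2 the r was 0.25.

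Leaving out Vav1 DTX EC replicate 2 gave 2596 genes whose irradiation response was above and 2399 whose irradiation response was below the ablation response, among them 1798 of the 1883 and 1753 of the 1801. It gave 438 genes higher in both (326 of the 415 kept), 976 lower in both (907 of the 1036 kept) and 561 with opposite responses (248 of the 268 kept). The count of opposite genes was 426 without irradiated replicate 1, 170 without Vav1 DTX EC replicate 3, and 158, 173 and 176 without Vav1 control EC replicates 1, 2 and 3. The count higher in both was 242, 214 and 241 without Vav1 control EC replicates 1, 2 and 3. With libraries scaled to the pan-endothelial level 276 of the 1883 genes kept an irradiation response above, and 1799 of the 1801 one below, the ablation response, while 53 of the 415 stayed higher in both, 817 of the 1036 lower in both and 24 of the 268 opposite. Over all 13779 genes that scaling gave 279 with an irradiation response above the ablation response and 4632 with one below it.

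**Figure D2:**
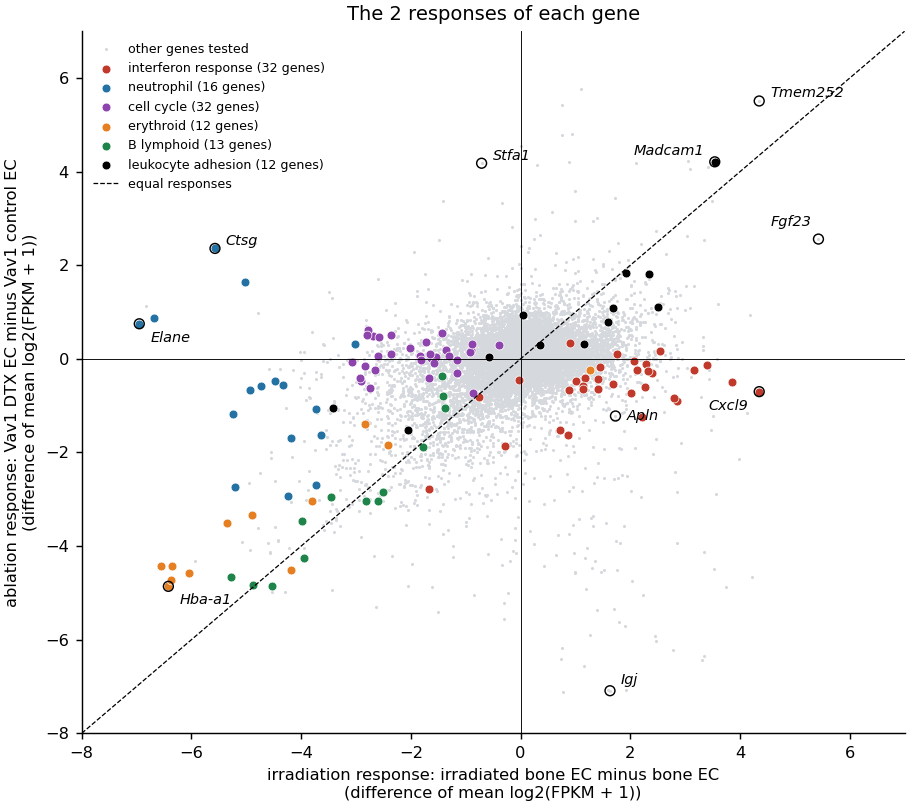
Irradiation response (x axis) against ablation response (y axis) of each of the 13779 genes tested, both as differences of mean log2(FPKM + 1), with 6 gene lists in colour and 10 genes circled and named, and a dashed line at equal responses. Interferon response genes lie right of the line, with a median irradiation response of 1.72 and a median ablation response of -0.52. Neutrophil genes lie far to the left at -4.61 and -0.63, cell cycle genes left at -1.77 and 0.07, and erythroid and B lymphoid genes low on both axes. On the pan-endothelial scaling these 5 lists kept the direction of their median difference, while that of the leukocyte adhesion genes, 0.08 here, was -0.85. The median over all genes tested was -0.76 on that scaling.

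**Figure D3:**
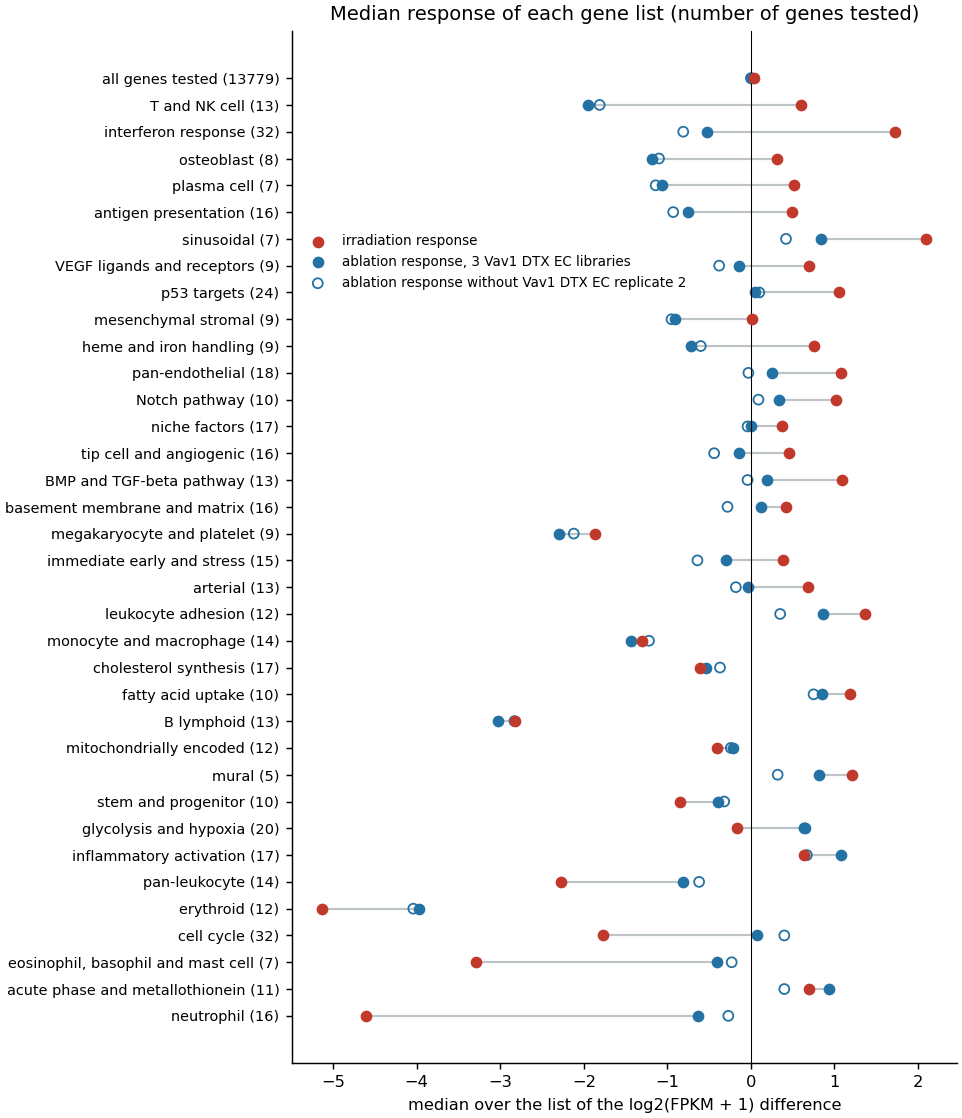
Median irradiation response (red), median ablation response (blue) and median ablation response without Vav1 DTX EC replicate 2 (open circles) of the gene lists, in log2(FPKM + 1) units. All lists but cartilage and sex-linked are drawn, ordered by their median difference, with the number of genes tested in brackets. The median difference is highest in the T and NK cell and the interferon lists. It is lowest in the neutrophil list, then in the acute phase (-2.89), eosinophil, basophil and mast cell (-2.06) and cell cycle lists. The acute phase list has single response medians of 0.70 and 0.93. With libraries scaled to the pan-endothelial level the median difference of 13 lists takes the opposite sign: pan-endothelial (whose mean level that scaling fixes), arterial, tip cell, Notch, BMP and TGF-beta, niche, leukocyte adhesion, basement membrane, heme, cholesterol, immediate early, monocyte and megakaryocyte. The median over all genes tested moves from 0.06 to -0.76 on that scaling. Of the 13 lists, leukocyte adhesion, cholesterol and monocyte then lie below -0.76 and the others above it.

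Interferon response genes responded more to irradiation than to ablation almost throughout. Of the 32 tested, the irradiation response was higher than the ablation response in 28 and lower in none, against 13.7% and 13.1% of all genes. The median of the list was 2.23 for the difference, 1.72 for the irradiation response and -0.52 for the ablation response, beside 0.06, 0.04 and 0.00 over all genes tested. In 27 of the 32 the irradiation response passed as higher, against 23.4% of all genes. In 8 the ablation response passed as lower and in none as higher, against 13.0% and 9.83% of all genes. The summed level of the 34 listed genes was 2878 to 3612 FPKM in irradiated bone EC, against 881 to 987 FPKM in bone EC. The sum was 401 to 925 FPKM in Vav1 DTX EC, against 913 to 1081 FPKM in Vav1 control EC, the 925 FPKM being replicate 2. Without that replicate 30 of the 32 differed, and 16 rather than 4 had opposite responses. On the pan-endothelial scaling 19 of the 32 still differed, all with the irradiation response higher, against 279 of the 13779 genes tested. The median difference there was 1.24, beside -0.76 over all genes.

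The chemokine Cxcl9, which attracts activated T and NK cells (chromosome 5, 92321347 to 92328079, minus strand, GRCm38, GENCODE vM21), had the largest difference of the list. It stood at 277, 378 and 282 FPKM in irradiated bone EC, against 10.6, 11.7 and 22.9 FPKM in bone EC. Vav1 DTX EC had 4.62, 12.4 and 4.20 FPKM, against 13.8, 8.25 and 11.2 FPKM in Vav1 control EC. Every irradiated library was far above every bone EC library, and the Vav1 groups overlapped. The difference was 5.04 on the log2 scale (SE 0.52, adjusted p = 0.00017, limma), made of an irradiation response of 4.35 and an ablation response of -0.70 that did not pass (adjusted p = 0.2) except without Vav1 DTX EC replicate 2 (-1.13, adjusted p = 0.019). Iigp1, an interferon-inducible GTPase of chromosome 18, followed at 4.34 (SE 0.46, adjusted p = 0.00021), with 362 to 570.3 FPKM in irradiated bone EC, against 26.9 to 40.9 FPKM in bone EC, and 14.3 to 33.5 FPKM in Vav1 DTX EC, against 20 to 39.7 FPKM in Vav1 control EC.

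Igtp, a GTPase of the same family that acts on vacuoles holding intracellular parasites (chromosome 11, 58199556 to 58207591, plus strand), was one of the 4 genes of the list with opposite responses. Its values were 132, 211 and 146 FPKM in irradiated bone EC, against 20.4, 18.6 and 25.6 FPKM in bone EC. The values were 10.5, 15.6 and 12.6 FPKM in Vav1 DTX EC, against 33.6, 20.7 and 20.7 FPKM in Vav1 control EC. Neither pair of groups overlapped. The difference was 3.73 (SE 0.33, adjusted p = 7.7e-05), with responses of 2.85 and -0.89 (adjusted p = 7.2e-06 and 0.018), of which the ablation response did not pass without Vav1 DTX EC replicate 1 or Vav1 control EC replicate 1 (-0.76 and -0.66, adjusted p = 0.069 and 0.079). Its gene overlaps Irgm2 in the annotation, so that reads may be shared between them. Oasl2 and Irgm1 were among the others. The ablation response of Irgm1, -0.72 (adjusted p = 0.039), passed in only 4 of the 12 fits that left out 1 library each, and the irradiation response of Oasl2, 0.86, was -0.37 on the pan-endothelial scaling.

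The interferon list did not move as a block. The antiviral genes Rsad2 and Oas1a were lower in both responses, although at least 1 of the responses of Oas1a (-0.75 and -0.82, adjusted p = 0.017 and 0.021) did not pass in 8 of the 12 fits that left out 1 library each. Rsad2, which blocks viral replication (chromosome 12, 26442746 to 26456452, minus strand), had 34.3, 35.5 and 28.8 FPKM in irradiated bone EC, against 125, 103 and 90.7 FPKM in bone EC. In the ablation pair it had 11.9, 28.9 and 15.9 FPKM in Vav1 DTX EC, against 118, 185 and 94.3 FPKM in Vav1 control EC. Its irradiation response was -1.66 and its ablation response -2.78 (adjusted p = 0.0011 and 7.1e-05), and their difference of 1.12 did not pass (adjusted p = 0.073) except without Vav1 DTX EC replicate 2 (1.46, adjusted p = 0.0086). Isg15, a ubiquitin-like antiviral protein picked after its values were seen, had no passing irradiation response (-0.29, adjusted p = 0.55) and an ablation response of -1.87 (adjusted p = 0.0036). Its difference of 1.58 (adjusted p = 0.042) passed in only 2 of the 12 fits that left out 1 library each, and not on the pan-endothelial scaling (0.57, adjusted p = 0.38). Isg15 stood at 109, 69.0 and 67.6 FPKM in irradiated bone EC, against 103, 94.3 and 96.2 FPKM in bone EC. Its levels were 15.4, 49.4 and 29.7 FPKM in Vav1 DTX EC, against 91.8, 159 and 82.8 FPKM in Vav1 control EC. Rsad2 and Isg15 are also expressed by blood cells, whose part in these values was not tested.

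The 250 bases before the RefSeq start are shown for 2 genes that parted and share an arrangement of known interferon motifs, for Rsad2, which fell in both, and for Cxcl9, which parted most. Windows are from RefSeq on GRCm38.p6, written 5′ to 3′ on the gene's strand, at chr11:58199306-58199555 (plus) for Igtp, chr11:49064213-49064462 (minus) for Tgtp2, chr12:26456453-26456702 (minus) for Rsad2 and chr5:92328080-92328329 (minus) for Cxcl9. Capitals mark matches, on either strand, to an interferon-stimulated response element (ISRE, GAAANNGAAA) or a gamma-activated site (GAS, TTCNNNGAA).
Igtp: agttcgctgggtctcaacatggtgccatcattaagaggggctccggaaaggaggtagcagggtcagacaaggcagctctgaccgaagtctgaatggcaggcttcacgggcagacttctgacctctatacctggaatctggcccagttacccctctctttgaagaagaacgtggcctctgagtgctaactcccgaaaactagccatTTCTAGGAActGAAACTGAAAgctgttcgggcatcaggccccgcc
Tgtp2: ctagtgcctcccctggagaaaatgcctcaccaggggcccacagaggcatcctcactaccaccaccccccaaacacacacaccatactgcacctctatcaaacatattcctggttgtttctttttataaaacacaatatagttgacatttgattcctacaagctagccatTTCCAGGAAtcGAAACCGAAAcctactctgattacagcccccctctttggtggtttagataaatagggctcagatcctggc
Rsad2: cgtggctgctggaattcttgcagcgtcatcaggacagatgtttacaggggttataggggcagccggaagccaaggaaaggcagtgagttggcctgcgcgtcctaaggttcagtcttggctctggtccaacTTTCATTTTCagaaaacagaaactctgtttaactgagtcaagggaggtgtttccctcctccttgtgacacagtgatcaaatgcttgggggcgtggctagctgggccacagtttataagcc
Cxcl9: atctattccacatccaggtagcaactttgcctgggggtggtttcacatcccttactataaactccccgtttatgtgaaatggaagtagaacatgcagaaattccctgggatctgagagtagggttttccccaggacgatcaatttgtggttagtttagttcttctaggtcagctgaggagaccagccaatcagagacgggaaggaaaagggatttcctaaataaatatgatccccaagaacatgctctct

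In Igtp the GAS match began 45 and the ISRE match 34 bases before the start, and in Tgtp2 81 and 70 bases before it, with 2 bases between the matches in both. The windows of Irgm2 and Tgtp1 hold the same pair, with the ISRE match 64 and 77 bases before the start. The joined pattern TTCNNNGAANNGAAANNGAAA, defined after these windows were seen, occurred in 5 of 27025 RefSeq windows (0.0185%), the 4 named and Gm12185, which overlaps Tgtp1. Tgtp2 had 44.2, 59.3 and 50.2 FPKM in irradiated bone EC, against 6.42, 4.23 and 9.57 FPKM in bone EC. Vav1 DTX EC had 2.78, 8.31 and 3.06 FPKM, against 11.4, 5.99 and 8.18 FPKM in Vav1 control EC, a difference of 3.63 (SE 0.50, adjusted p = 0.0009). Tgtp1 and Tgtp2 are close paralogs whose reads may be split between them. Rsad2 holds 1 ISRE match 120 bases before the start and no GAS match, and the Cxcl9 window holds neither.

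An ISRE match was found in 17 of the 25 interferon response genes with a window (68%), in 15 of the 23 of these whose responses differed (65.2%) and in both of the 2 that did not differ. It was found in 318 of 9230 windows of all genes tested (3.45%), in 12 of 307 windows of genes higher in both responses (3.91%), in 1 of 17 p53 targets (5.88%) and in 1 of 11 antigen presentation genes (9.09%). A GAS match was found in 10 of the 25 interferon genes (40%), against 682 of the 9230 (7.39%) and 25 of the 307 (8.14%). The interferon list holds genes known for such elements, and a match is a description of letters, not of binding.

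**Figure D4:**
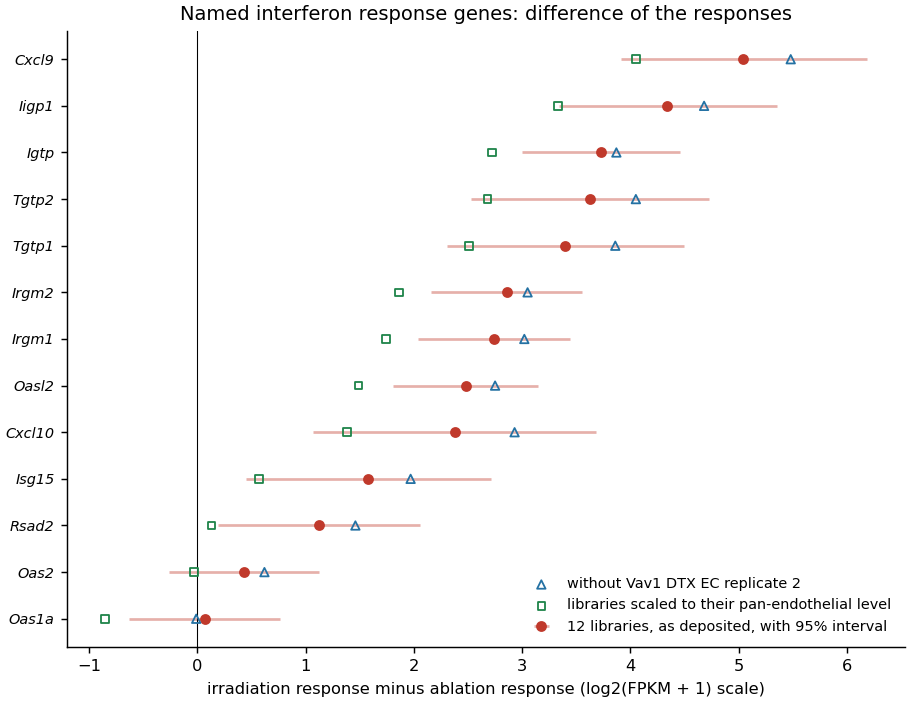
Difference of the responses (irradiation minus ablation, log2(FPKM + 1) scale) of the 13 interferon response genes named here, of 32 tested, with points and 95% intervals for the 12 libraries as deposited, triangles without Vav1 DTX EC replicate 2 and squares with libraries scaled to their pan-endothelial level. The points run from 5.04 for Cxcl9 to 0.07 for Oas1a, the triangles lie to the right of the points except for Oas1a, and the squares lie to the left of them, below 0 for Oas1a and Oas2.

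Antigen presentation genes differed the same way in 13 of 16, against 13.7% of all genes, with a median difference of 1.36 and none lower. Tap1, which pumps peptides into the endoplasmic reticulum for class I molecules, was higher after irradiation and lower after ablation, with 64.0, 104 and 79.2 FPKM in irradiated bone EC, against 23.2, 19.5 and 26.3 FPKM in bone EC. The values were 17.0, 17.4 and 17.2 FPKM in Vav1 DTX EC, against 32.9, 28.5 and 29.9 FPKM in Vav1 control EC (difference 2.57, SE 0.24, adjusted p = 9.6e-05). Tap1 overlaps Psmb9, another gene of the list with opposite responses, whose irradiation response of 0.59 was -0.64 on the pan-endothelial scaling. The class II genes Cd74, H2-Aa, H2-Ab1, H2-Eb1 and H2-DMa were lower in both. Cd74, the class II chaperone, stood at 1292, 728 and 688 FPKM in irradiated bone EC, against 2355, 2614 and 2177 FPKM in bone EC. Vav1 DTX EC stood at 273, 343 and 237 FPKM, against 3064, 2396 and 2645 FPKM in Vav1 control EC, so the ablation response was the deeper by 1.80 (adjusted p = 0.0048). Class II molecules are made by B cells, and the sum of 13 B lymphoid genes was 13.9 to 34.9 FPKM in irradiated bone EC, against 350.2 to 576 FPKM in bone EC. The sum was 27.5 to 30.8 FPKM in Vav1 DTX EC, against 494 to 651 FPKM in Vav1 control EC; the part of these cells in the class II values was not tested. With libraries scaled to the pan-endothelial level only Tap1 of the 16 kept a passing difference (1.56, adjusted p = 0.011), against 279 of the 13779 genes tested with a higher irradiation response. The median difference of the list was 0.39, beside -0.76 over all genes.

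Of 24 p53 target genes, 11 had a higher irradiation than ablation response and none a lower one, against 13.7% and 13.1% of all genes. The medians were 0.94 for the difference, 1.06 for the irradiation response and 0.05 for the ablation response. Phlda3, which restrains Akt signalling (chromosome 1, 135766119 to 135769136, plus strand), stood at 117, 105 and 101 FPKM in irradiated bone EC, against 9.47, 17.8 and 13.4 FPKM in bone EC. In the ablation pair it had 15.1, 23.8 and 13.4 FPKM in Vav1 DTX EC, against 12.4, 12.2 and 14.3 FPKM in Vav1 control EC. The irradiated libraries were separate from bone EC and the Vav1 groups overlapped, and the difference was 2.57 (SE 0.32, adjusted p = 0.00057). Eda2r, a receptor of the tumour necrosis factor family on chromosome X, had 4.22 to 5.51 FPKM in irradiated bone EC, against 0.0468 to 0.222 FPKM in bone EC, and 0.381 to 0.819 FPKM in Vav1 DTX EC, against 0.136 to 0.302 FPKM in Vav1 control EC (difference 1.98, SE 0.22, adjusted p = 0.00032). Sesn2, a stress sensor that inhibits mTOR signalling, and Dcxr, a sugar reductase, differed by 2.01 and 2.0 (adjusted p = 0.00051 and 0.0097).

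The p53 list also held shared genes. Cdkn1a, the inhibitor that arrests the cell cycle, had 481, 349 and 403 FPKM in irradiated bone EC, against 75.3, 83.4 and 50.8 FPKM in bone EC. Its levels were 208, 951 and 249 FPKM in Vav1 DTX EC, against 126, 132 and 177 FPKM in Vav1 control EC. Irradiated bone EC and Vav1 DTX EC both lay above their controls, but the ablation response of 1.35 did not pass (adjusted p = 0.054), and neither did the difference of 1.21 (95% interval -0.21 to 2.62, adjusted p = 0.19). Without Vav1 DTX EC replicate 2, the library at 951 FPKM, the difference was 1.89 (adjusted p = 0.0014). Bax, an effector of cell death, was higher in both, and its irradiation response was the larger by 0.82 (adjusted p = 0.026), a difference that did not pass in 7 of the 12 fits that left out 1 library each. Aen was higher in both, as was Tnfrsf10b, whose ablation response (0.95, adjusted p = 0.044) passed in only 3 of the 12 fits that left out 1 library each. Btg2, an inhibitor of proliferation, was lower in both with 303 to 327 FPKM in irradiated bone EC, against 484 to 598 FPKM in bone EC, and 119 to 245 FPKM in Vav1 DTX EC, against 591 to 597 FPKM in Vav1 control EC. None (0 of the 24) was higher in both on the pan-endothelial scaling, against 55 of the 13779 genes tested. There 3 of the 24 had an irradiation response above and 3 one below the ablation response, against 279 and 4632 of the 13779. Phlda3 and Eda2r kept their differences there (adjusted p = 0.0081 and 0.0035), and Sesn2 and Dcxr did not.

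Cell cycle genes differed in the other direction in 27 of 32, against 13.1% of all genes, with none higher. The median difference was -1.93, from a median irradiation response of -1.77 and a median ablation response of 0.07. The irradiation response passed as lower in 30 of the 32 and the ablation response in none, against 21.4% and 13.0% of all genes. The mitotic kinase Plk1 (chromosome 7, 122159439 to 122169873, plus strand) stood at 4.42, 3.10 and 2.24 FPKM in irradiated bone EC, against 28.3, 27.9 and 26.9 FPKM in bone EC. Vav1 DTX EC had 86.4, 42.3 and 92.1 FPKM, against 46.9, 47.7 and 41.8 FPKM in Vav1 control EC. The irradiated libraries were all lower than bone EC, while replicates 1 and 3 of Vav1 DTX EC lay above the controls and replicate 2 among them. The difference was -3.39 (SE 0.37, adjusted p = 0.00029), and it was -3.29 for Rrm2, a subunit of ribonucleotide reductase, -3.18 for the mitotic cyclin Ccnb1 and -3.05 for Cdc20, an activator of the anaphase-promoting complex. Without Vav1 DTX EC replicate 2, 31 of the 32 genes differed, the median ablation response was 0.40, 9 genes had opposite responses and the ablation response of Plk1 passed as higher (0.96, adjusted p = 0.0034). The pan-endothelial scaling left 31 lower, against 4632 of the 13779 genes tested. Blood cell precursors divide, and the neutrophil and erythroid sums given above were also lower in irradiated bone EC than in bone EC. Vav1 DTX EC replicate 2, lowest of its group for Plk1, was also lowest for the neutrophil sum, and the part of these cells in the result was not tested.

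**Figure D5:**
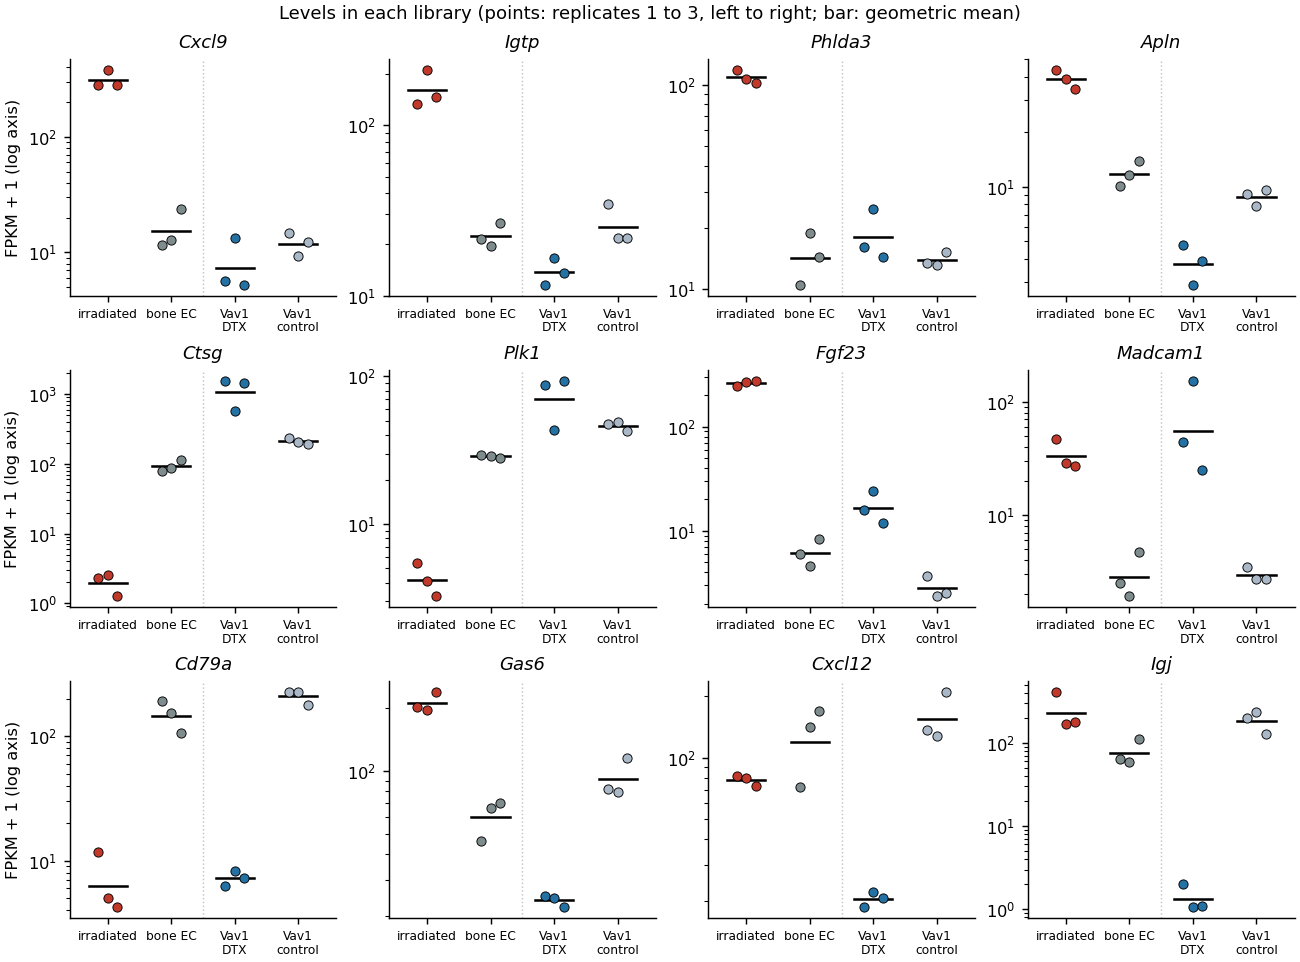
FPKM + 1 (log axis) of 12 genes in each library, with replicates 1 to 3 as points from left to right, a bar at the geometric mean and a dotted line between the separately normalized tables. Cxcl9, Igtp and Phlda3 are higher in the irradiated libraries than in all others. Apln, Gas6 and Igj are higher than bone EC in irradiated bone EC and lower than Vav1 control EC in Vav1 DTX EC, although on the pan-endothelial scaling the irradiation responses of these 3 did not pass. Ctsg has the reverse pattern, Fgf23 and Madcam1 are higher in irradiated bone EC and Vav1 DTX EC than in their controls, and Cd79a is lower in both.

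All 16 neutrophil genes tested fell after irradiation, against 21.4% of all genes. After ablation 2 of them rose and 5 fell, against 9.83% and 13.0% of all genes. Of the 16, 14 had a lower irradiation than ablation response and none a higher one, against 13.1% and 13.7% of all genes, with a median of -3.89. Cathepsin G (Ctsg, chromosome 14, 56099881 to 56102574, minus strand), a protease of primary granules, stood at 1.28, 1.55 and 0.259 FPKM in irradiated bone EC, against 76.9, 85.8 and 114 FPKM in bone EC. The values were 1550.3, 578 and 1434 FPKM in Vav1 DTX EC, against 232, 208 and 193 FPKM in Vav1 control EC. All 3 irradiated libraries were near the floor and all 3 Vav1 DTX EC libraries above their controls, a difference of -7.93 (SE 0.51, adjusted p = 1e-05) from responses of -5.57 and 2.36, each of which passed. Prtn3, another primary granule protease, and, outside the list, Ms4a3, a membrane protein of granulocyte precursors, had opposite responses as well, of -5.03 and 1.64 and of -4.84 and 2.48. Elane and Mpo, neutrophil elastase and myeloperoxidase, differed by -7.70 and -7.57 without a passing ablation response (0.75 and 0.88, adjusted p = 0.16 and 0.36), although that of Elane passed without Vav1 DTX EC replicate 2 (1.09, adjusted p = 0.038). With libraries scaled to the pan-endothelial level Ctsg and Ms4a3 kept opposite responses and Prtn3 lost its ablation response (1.39, adjusted p = 0.064).

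Of the 16 neutrophil genes 5 were lower in both comparisons, against 7.52% of all genes. Ly6g, the surface marker of mature neutrophils, had 21.4, 7.39 and 4.63 FPKM in irradiated bone EC, against 209.9, 188 and 178 FPKM in bone EC. Vav1 DTX EC stood at 53.5, 27.0 and 60.4 FPKM, against 363, 308 and 366 FPKM in Vav1 control EC, responses of -4.24 and -2.93 whose difference did not pass (adjusted p = 0.13; 0.045 without Vav1 DTX EC replicate 2). Mmp9, a gelatinase of late granules, had responses of -3.73 and -2.70 (adjusted p of the difference 0.21, and 0.02 without Vav1 DTX EC replicate 2), and Mmp8, Retnlg and Cxcr2 were the other 3 members lower in both. S100a8, a calcium-binding protein abundant in neutrophils of every stage, differed by -4.16 (adjusted p = 0.0033) with an ablation response of -0.58 that did not pass. Stefin A1 (Stfa1), a cysteine protease inhibitor with close paralogs, stood at 22.1, 8.17 and 1.24 FPKM in irradiated bone EC, against 15, 11 and 9.89 FPKM in bone EC. It reached 893, 301 and 1056 FPKM in Vav1 DTX EC, against 41.4, 28.1 and 37.6 FPKM in Vav1 control EC (difference -4.89, SE 0.98, adjusted p = 0.0053). Of 7 eosinophil, basophil and mast cell genes 5 were lower in the difference (median -2.06), against 13.1% of all genes, among them the protease Mcpt8 at -3.6 (adjusted p = 0.00046).

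T and NK cell genes responded the other way round. Of 13 genes 10 had a higher irradiation than ablation response and none a lower one, against 13.7% and 13.1% of all genes. The median difference was 2.25 from medians of 0.60 and -1.95, and the ablation response passed as lower in 11, against 13.0% of all genes. Il2rb, a receptor subunit for interleukins that sustain NK and T cells, stood at 31.6, 29.0 and 17.0 FPKM in irradiated bone EC, against 10.6, 6.69 and 4.65 FPKM in bone EC. In the ablation pair it had 1.69, 0.658 and 0.911 FPKM in Vav1 DTX EC, against 13.5, 10.2 and 9.80 FPKM in Vav1 control EC. Neither pair overlapped, and the difference was 4.27 (SE 0.42, adjusted p = 0.00014) from responses of 1.71 and -2.56. Cd3e, of the T cell receptor complex, Ncr1, an activating NK receptor, and Prf1, the pore-forming protein of killer cells, were the other 3 opposite members, with differences of 2.83, 3.0 and 1.78, but the irradiation responses of Cd3e and Prf1 (0.96 and 0.84) were -0.11 and -0.02 on the pan-endothelial scaling. The irradiation response of Prf1 did not pass without irradiated replicate 2 or bone EC replicate 2 or 3, nor its ablation response without Vav1 DTX EC replicate 1 or 3 or Vav1 control EC replicate 1 or 2. Xcl1, a chemokine of NK and activated T cells, differed by 4.86 (adjusted p = 0.00046), with 6.94 to 27.5 FPKM in irradiated bone EC, against 1.05 to 3.75 FPKM in bone EC, and 0 to 0.147 FPKM in Vav1 DTX EC, against 5.86 to 7.72 FPKM in Vav1 control EC. The sum of the 13 genes was 107 to 219 FPKM in irradiated bone EC, against 128 to 135 FPKM in bone EC, and 123 to 230 FPKM in Vav1 DTX EC, against 194 to 216 FPKM in Vav1 control EC. Nkg7, a granule protein of killer cells, made up most of that sum in Vav1 DTX EC with 103 to 219 FPKM, against 113 to 126 FPKM in Vav1 control EC, and its difference of -0.89 (adjusted p = 0.12) did not pass, although it did without irradiated replicate 1 or Vav1 DTX EC replicate 2 (-1.17 each, adjusted p = 0.029 and 0.024) and on the pan-endothelial scaling (-1.88, adjusted p = 0.038). On the pan-endothelial scaling 7 of the 13 had an irradiation response above and 1 had one below the ablation response, against 279 and 4632 of the 13779 genes tested. Il2rb was among the 7 (3.23, adjusted p = 0.0041), while its irradiation response alone no longer passed (0.53, adjusted p = 0.24).

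The plasma cell gene Igj, the joining chain of secreted antibodies, had the largest positive difference of the named genes, antibody segments and unnamed genes set aside. It stood at 407, 165 and 179 FPKM in irradiated bone EC, against 62.7, 57.1 and 110.4 FPKM in bone EC. Its levels were 1.02, 0.0532 and 0.108 FPKM in Vav1 DTX EC, against 199, 236 and 125 FPKM in Vav1 control EC. It was near 0 in all 3 Vav1 DTX EC libraries, and the difference was 8.72 (SE 0.56, adjusted p = 1e-05) from responses of 1.63 and -7.09. The irradiation response was 0.37 on the pan-endothelial scaling (adjusted p = 0.47), the ablation response -7.20. Of 7 plasma cell genes 5 differed this way, against 13.7% of all genes, with a median of 1.37. Xbp1, the secretory transcription factor that endothelium also expresses, was higher in both, with 806 to 1071 FPKM in irradiated bone EC, against 138 to 185 FPKM in bone EC, and 278 to 681 FPKM in Vav1 DTX EC, against 171 to 177 FPKM in Vav1 control EC. Its irradiation response was the larger by 1.37 (adjusted p = 0.027), which did not pass in 8 of the 12 fits that left out 1 library each or on the pan-endothelial scaling (0.35, adjusted p = 0.34).

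Macrophage genes were split. Among 14 monocyte and macrophage genes 6 had a higher and 4 a lower irradiation than ablation response, against 13.7% and 13.1% of all genes, with a median of 0.02. On the pan-endothelial scaling the counts were 3 and 5, against 279 and 4632 of the 13779 genes tested. The median there was -0.89, beside -0.76 over all genes. The 3 complement C1q chains, made by resident macrophages, fell after ablation and had no passing irradiation response. C1qa stood at 147, 44.8 and 58.6 FPKM in irradiated bone EC, against 74.6, 71.7 and 78.7 FPKM in bone EC. Vav1 DTX EC had 7.19, 2.32 and 4.13 FPKM, against 64.5, 56.4 and 41.2 FPKM in Vav1 control EC (difference 3.35, SE 0.57, adjusted p = 0.0025; irradiation response -0.04, adjusted p = 0.95). C1qc and C1qb differed by 3.19 and 2.72. The scavenger receptor Marco was at 9.02 to 13.6 FPKM in irradiated bone EC and at or below 0.847 FPKM in all 9 other libraries (difference 3.50, SE 0.28, adjusted p = 4.3e-05). Spic and Cd163, a transcription factor and a hemoglobin receptor of iron-recycling macrophages, and Cd5l, a secreted macrophage protein, had opposite responses with differences of 2.28, 1.77 and 4.32, although the irradiation response of Cd163, 0.78, was -0.23 on the pan-endothelial scaling. The chemokine Ccl8, which attracts monocytes, had 133, 40.7 and 37.6 FPKM in irradiated bone EC and at most 6.06 FPKM in the 9 other libraries (difference 5.29, SE 0.89, adjusted p = 0.0023). Among monocyte genes Ly6c2 differed by -2.50 (adjusted p = 0.0012), with responses of -3.40 and -0.90, the ablation response not passing without Vav1 DTX EC replicate 2 or any 1 of the 3 Vav1 control EC libraries, and Ccr2, a monocyte chemokine receptor, fell by 2.28 after irradiation and by 2.06 after ablation on the log2 scale.

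Endothelial genes leaned towards irradiation in the values as deposited. Of 18 pan-endothelial genes 8 had a higher irradiation than ablation response and none a lower one (median 0.87), against 13.7% and 13.1% of all genes. Without Vav1 DTX EC replicate 2, 15 had a higher one. The pan-endothelial scaling holds the mean of these genes level by construction, though not each gene. Among genes of vessel growth some differed on it as well. Apln, the peptide apelin made by sprouting endothelium (chromosome X, 48025146 to 48034853, minus strand), stood at 42.7, 37.9 and 33.3 FPKM in irradiated bone EC, against 9.11, 10.5 and 12.8 FPKM in bone EC. The values were 3.80, 1.87 and 2.91 FPKM in Vav1 DTX EC, against 8.13, 6.83 and 8.54 FPKM in Vav1 control EC. Neither pair overlapped. The difference was 2.95 (SE 0.27, adjusted p = 9.5e-05) from responses of 1.73 and -1.22, and it was 1.91 on the pan-endothelial scaling (adjusted p = 0.0091), where the irradiation response alone no longer passed (0.52, adjusted p = 0.13). Esm1, a proteoglycan of tip cells, showed no passing irradiation response (-0.04, adjusted p = 0.91) and fell to 2.32, 1.75 and 1.91 FPKM in Vav1 DTX EC, against 13.0, 13.4 and 18.3 FPKM in Vav1 control EC (difference 2.36, SE 0.33, adjusted p = 0.001). Angpt2, a Tie2 ligand released by activated endothelium, was higher in both, with 22.4 to 33.9 FPKM in irradiated bone EC, against 2.37 to 4.03 FPKM in bone EC, and 5.95 to 14.4 FPKM in Vav1 DTX EC, against 2.55 to 3.38 FPKM in Vav1 control EC, and its irradiation response was the larger by 1.49 (adjusted p = 0.018; 0.1 on the pan-endothelial scaling). Of 16 tip cell and angiogenic genes 6 differed towards irradiation and 1, Plaur, away from it (-1.38, adjusted p = 0.032, not passing in 7 of the 12 fits that left out 1 library each), against 13.7% and 13.1% of all genes. The list had a median of 0.71 that was -0.25 on the pan-endothelial scaling, beside 0.06 and -0.76 over all genes tested.

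Among the pan-endothelial genes Plvap, of the diaphragms of fenestrae, had 2411 to 3437 FPKM in irradiated bone EC, against 728 to 945 FPKM in bone EC, and 503 to 1016 FPKM in Vav1 DTX EC, against 792 to 972 FPKM in Vav1 control EC (difference 2.05, SE 0.36, adjusted p = 0.0027). Kdr, the main receptor of VEGF, had 178 to 404 FPKM in irradiated bone EC, against 71.3 to 96.1 FPKM in bone EC, and 22.2 to 51.2 FPKM in Vav1 DTX EC, against 36.9 to 44.0 FPKM in Vav1 control EC (difference 1.96, SE 0.46, adjusted p = 0.011). Plvap kept its call on the pan-endothelial scaling (1.03, adjusted p = 0.018) and Kdr did not (0.94, adjusted p = 0.072), although both genes help to set that scaling. The Notch ligands Dll4 and Jag1, the VEGF co-receptor Nrp1 and the growth factor Bmp2 differed by 1.29, 1.45, 1.48 and 1.44 with adjusted p of 0.015, 0.0095, 0.0041 and 0.011, and none of them did on that scaling.

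Cxcl12, Adipoq and Lepr fell after ablation and had no passing irradiation response. Cxcl12, the chemokine that retains stem cells in the marrow (chromosome 6, 117168535 to 117181367, plus strand), stood at 80.3, 79.1 and 71.9 FPKM in irradiated bone EC, against 71.3, 141 and 168 FPKM in bone EC. Vav1 DTX EC stood at 17.6, 21.1 and 19.6 FPKM, against 136, 127 and 209 FPKM in Vav1 control EC. The irradiation pair overlapped and the ablation pair was far apart, a difference of 2.30 (SE 0.40, adjusted p = 0.0026) from responses of -0.63 (adjusted p = 0.09) and -2.92. The stromal genes Adipoq, a hormone of marrow fat precursors, and Lepr, the leptin receptor that marks the same cells, moved with it, differing by 1.98 and 1.69 (adjusted p = 0.021 and 0.017) with ablation responses of -2.08 and -1.45; on the pan-endothelial scaling Cxcl12 kept its difference (1.28, adjusted p = 0.035) and these did not, nor did Adipoq without Vav1 DTX EC replicate 1 or Vav1 control EC replicate 3 (1.83 and 1.82, adjusted p = 0.051 and 0.054). The summed level of 10 mesenchymal stromal genes was 66.9 to 117 FPKM in irradiated bone EC, against 49.1 to 112 FPKM in bone EC, and 18.7 to 30.3 FPKM in Vav1 DTX EC, against 66.5 to 98.1 FPKM in Vav1 control EC, and its part in the Cxcl12 result was not tested. Gas6, a ligand of receptors that clear dying cells (chromosome 8, 13465374 to 13494490, minus strand), stood at 203, 196 and 239 FPKM in irradiated bone EC, against 44.9, 65.7 and 68.9 FPKM in bone EC. In the ablation pair it had 24, 23.6 and 21.1 FPKM in Vav1 DTX EC, against 81.3, 78.4 and 115 FPKM in Vav1 control EC. Neither pair overlapped, and the difference was 3.76 (SE 0.27, adjusted p = 1.7e-05) from responses of 1.83 and -1.93, while on the pan-endothelial scaling the irradiation response was 0.57 and did not pass (adjusted p = 0.059).

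Genes higher in both responses by large margins included Tmem252, a membrane protein, with responses of 4.35 and 5.51, the chemokine Ccl12 with 3.42 and 4.11, and Car4, a carbonic anhydrase of capillaries, with 3.49 and 3.38. Madcam1, the addressin through which lymphocytes home to mucosal vessels (chromosome 10, 79664559 to 79668537, plus strand), stood at 45.3, 27.8 and 25.8 FPKM in irradiated bone EC, against 1.54, 0.921 and 3.69 FPKM in bone EC. Its levels were 43.2, 151 and 23.7 FPKM in Vav1 DTX EC, against 2.50, 1.72 and 1.74 FPKM in Vav1 control EC. Each irradiated and Vav1 DTX EC library exceeded the controls of its own table, which the naming of the largest shared genes required. Groups did not overlap in both responses in 23.4% of all genes tested. The responses of Madcam1 were 3.54 and 4.21 (adjusted p = 0.00037 and 0.00026), and their difference of -0.67 had a 95% interval of -2.36 to 1.01. Mest, an imprinted gene, had 48.5 to 83.1 FPKM in irradiated bone EC, against 6.25 to 8.39 FPKM in bone EC, and 16.5 to 28.3 FPKM in Vav1 DTX EC, against 2.55 to 3.59 FPKM in Vav1 control EC, with responses of 3.04 and 2.63 and a narrower interval of the difference, -0.35 to 1.16. Lipg, the endothelial lipase of chromosome 18, had 97.8 to 109 FPKM in irradiated bone EC, against 15.5 to 21.6 FPKM in bone EC, and 26 to 60.6 FPKM in Vav1 DTX EC, against 4.06 to 5.56 FPKM in Vav1 control EC, with responses of 2.46 and 2.73 and an interval of -1.06 to 0.51. Madcam1, Mest and Lipg stayed higher in both on the pan-endothelial scaling.

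Fgf23, a hormone best known from bone cells that lowers phosphate reabsorption in the kidney (chromosome 6, 127072902 to 127081408, plus strand), was shared but unequal. It stood at 246, 268 and 273 FPKM in irradiated bone EC, against 4.97, 3.6 and 7.29 FPKM in bone EC. Vav1 DTX EC had 14.7, 23.2 and 10.9 FPKM, against 2.72, 1.35 and 1.53 FPKM in Vav1 control EC. Both pairs of groups were separate. The irradiation response of 5.43 exceeded the ablation response of 2.56 by 2.87 (SE 0.39, adjusted p = 0.00084), and by 1.90 on the pan-endothelial scaling (adjusted p = 0.0057). Serpina3g, an intracellular protease inhibitor induced by inflammation, was of the same kind, with 484 to 695 FPKM in irradiated bone EC, against 39.0 to 69.4 FPKM in bone EC, and 76.2 to 157 FPKM in Vav1 DTX EC, against 36.4 to 49.0 FPKM in Vav1 control EC (responses 3.59 and 1.17, difference 2.42, adjusted p = 0.0025), its ablation response not passing without Vav1 control EC replicate 2 (1.03, adjusted p = 0.062). It has close paralogs, among them Serpina3f, whose difference was 3.25 without a passing ablation response (0.93, adjusted p = 0.14).

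Leukocyte adhesion genes were higher in both responses in 5 of 12, against 3.01% of all genes, with medians of 1.37 and 0.86 and a median difference of 0.08. Without Vav1 DTX EC replicate 2 the ablation median was 0.35 and the median difference 0.64, with 4 genes higher in the difference and 3 higher in both. With the pan-endothelial scaling 4 were lower in the difference and 3 higher in both, against 4632 and 55 of the 13779 genes tested. There Icam1 lost its irradiation response and Sele both of its responses. The 5 genes higher in both as deposited were Madcam1, Selp, Icam1, Vcam1 and Sele. P-selectin (Selp), which lets leukocytes roll on the vessel wall, stood at 171, 205 and 226 FPKM in irradiated bone EC, against 34.7, 35.8 and 46.3 FPKM in bone EC. The values were 114, 183 and 41.4 FPKM in Vav1 DTX EC, against 24.5, 25.8 and 29.0 FPKM in Vav1 control EC. Neither pair overlapped, and the responses of 2.34 and 1.82 differed by 0.52 (95% interval -0.71 to 1.76). Icam1, the ligand of leukocyte integrins, had 226 to 258 FPKM in irradiated bone EC, against 56.3 to 73.0 FPKM in bone EC, and 98.6 to 483 FPKM in Vav1 DTX EC, against 46.8 to 56.7 FPKM in Vav1 control EC. The ablation responses of Vcam1 and Sele no longer passed without Vav1 DTX EC replicate 2 (0.67 and 0.80, adjusted p = 0.068 and 0.12), without replicate 1 of that group or without any 1 of the Vav1 control EC libraries, nor that of Sele without irradiated replicate 3 or bone EC replicate 1 or 3. Selplg, the selectin ligand on leukocytes, was lower in both with a difference of -0.54 that did not pass (adjusted p = 0.21).

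Genes of fatty acid uptake were higher in both in 5 of 10, against 3.01% of all genes, with medians of 1.19 and 0.85 and a median difference of -0.02. Without Vav1 DTX EC replicate 2 the median difference was 0.31, with 3 genes higher in the difference and 4 higher in both. It was -1.03 on the pan-endothelial scaling, beside -0.76 over all genes tested. There 3 genes were lower in the difference and 0 of the 10 higher in both, against 4632 and 55 of the 13779 genes. Fabp4, the fatty acid binding protein of capillary endothelium (chromosome 3, 10204088 to 10208576, minus strand), stood at 8363, 4652 and 6977 FPKM in irradiated bone EC, against 1454, 2463 and 2347 FPKM in bone EC. Vav1 DTX EC stood at 4498, 15355 and 3542 FPKM, against 1479, 1745 and 1738 FPKM in Vav1 control EC. Each irradiated and Vav1 DTX EC library lay above its controls, with responses of 1.67 and 1.92 (adjusted p = 0.013 each). The fatty acid transporter Cd36 had responses of 1.93 and 1.91, and Gpihbp1 and Lpl, which hold and form the lipase of the capillary surface, of 1.4 and 1.45 and of 1.37 and 1.86. Vav1 DTX EC replicate 2 was the highest of all 12 libraries for each of these 4, and without it their ablation responses were 1.27, 1.13, 0.90 and 1.32 and still passed. The ablation response of Cd36 did not pass without Vav1 control EC replicate 1 or 3, nor that of Gpihbp1 without Vav1 DTX EC replicate 3 or any 1 of the Vav1 control EC libraries. The irradiation responses of Fabp4, Gpihbp1 and Lpl did not pass without bone EC replicate 1 (1.43, 1.12 and 1.14, adjusted p = 0.053, 0.072 and 0.054), nor that of Gpihbp1 without irradiated replicate 3. With libraries scaled to the pan-endothelial level the irradiation responses of Fabp4, Cd36, Gpihbp1 and Lpl did not pass (0.40, 0.67, 0.13 and 0.13, adjusted p = 0.29, 0.12, 0.73 and 0.72). Pparg, the lipid-sensing transcription factor, differed instead, by 1.51 towards irradiation (adjusted p = 0.017; 0.18 on the pan-endothelial scaling).

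Blood cell lists held many shared genes. Of 12 erythroid genes 11 were lower in both, of 13 B lymphoid genes 12 and of 9 megakaryocyte and platelet genes 7, against 7.52% of all genes. The alpha globin gene Hba-a1 stood at 237, 81.1 and 105 FPKM in irradiated bone EC, against 10254, 10496 and 12162 FPKM in bone EC. In the ablation pair it had 472, 853 and 654 FPKM in Vav1 DTX EC, against 20778, 22636 and 13913 FPKM in Vav1 control EC. It fell by 6.42 after irradiation and by 4.86 after ablation on the log2 scale, and the difference of -1.56 (adjusted p = 0.047) passed in only 2 of the 12 fits that left out 1 library each, with an adjusted p of 0.071 without Vav1 DTX EC replicate 2. Its reads cannot be told with certainty from those of its near copy Hba-a2. Alas2, the first enzyme of heme synthesis in red cell precursors, had 7.62 to 12.2 FPKM in irradiated bone EC, against 559 to 914 FPKM in bone EC, and 25.1 to 49.5 FPKM in Vav1 DTX EC, against 665 to 1218 FPKM in Vav1 control EC. Over the 12 erythroid genes the median difference was -1.52, from medians of -5.13 and -3.97.

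Among the B lymphoid genes Cd79a, a chain of the B cell receptor complex (chromosome 7, 24897381 to 24902197, plus strand), stood at 10.7, 4.05 and 3.21 FPKM in irradiated bone EC, against 189, 152 and 104 FPKM in bone EC. Its levels were 5.24, 7.22 and 6.30 FPKM in Vav1 DTX EC, against 224, 225 and 178 FPKM in Vav1 control EC. The responses were -4.53 and -4.86, with a difference of 0.33 (95% interval -0.71 to 1.37). Ms4a1, the B cell antigen CD20, had responses of -4.87 and -4.83 and stood at or below 1.03 FPKM in all 6 irradiated and Vav1 DTX EC libraries, against 30.4 to 66.0 FPKM in the 6 bone EC and Vav1 control EC libraries. The list medians were -2.82 after irradiation and -3.03 after ablation, with -0.04 for the difference, and 1 member, Rag1, differed (-1.07, adjusted p = 0.013). Platelet gene Ppbp fell by 4.53 after irradiation and by 4.98 after ablation on the log2 scale, although Vav1 control EC themselves held 175, 84.7 and 12.7 FPKM.

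Inflammatory genes differed in 4 of 17, all with the irradiation response lower, against 13.1% of all genes. Without Vav1 DTX EC replicate 2, 3 had a higher and 4 a lower irradiation than ablation response. On the pan-endothelial scaling 11 had a lower one, against 4632 of the 13779 genes tested. Of the 17, 5 were higher in both responses and 2 lower in both, against 3.01% and 7.52% of all genes. The count higher in both was 4 without Vav1 DTX EC replicate 2 and 2 on the pan-endothelial scaling. Tnf, the cytokine tumour necrosis factor, had opposite responses, standing at 8.45, 4.93 and 3.48 FPKM in irradiated bone EC, against 18.3, 13.2 and 11.8 FPKM in bone EC. Vav1 DTX EC had 49.9, 53.3 and 42.7 FPKM, against 19.8, 18.8 and 24.7 FPKM in Vav1 control EC (difference -2.44, SE 0.35, adjusted p = 0.0012). Its ablation response did not pass on the pan-endothelial scaling (0.93, adjusted p = 0.097). Il6, a cytokine that drives the acute phase, stood at 4.95, 2.0 and 2.86 FPKM in irradiated bone EC, against 18.4, 19.9 and 18.5 FPKM in bone EC. The values were 28.9, 92.1 and 16.6 FPKM in Vav1 DTX EC, against 15.6, 18 and 20.9 FPKM in Vav1 control EC, so that it fell after irradiation without a passing ablation response (difference -3.22, adjusted p = 0.006). The neutrophil chemokine Cxcl2 was like it at -3.64 (adjusted p = 0.0055). Ptgs2, the inducible cyclooxygenase, was lower in both, and more so after irradiation by 1.57 (adjusted p = 0.011). Neutrophils and monocytes also make these products, and the part of their lower sums after irradiation was not tested.

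Some inflammatory genes reached their highest value in Vav1 DTX EC replicate 2. Csf3, the growth factor of neutrophils, had 61.7, 296 and 8.15 FPKM in Vav1 DTX EC, against 0.974, 0.692 and 1.47 FPKM in Vav1 control EC, and the acute phase protein Saa3 had 381, 2019 and 22.2 FPKM in Vav1 DTX EC, against 1.73, 5.07 and 5.77 FPKM in Vav1 control EC. Their ablation responses of 4.78 and 5.76 passed (adjusted p = 0.0097 and 0.0045; 3.57 and 4.29, adjusted p = 0.025 and 0.0064, without Vav1 DTX EC replicate 2), and their irradiation responses of 0.76 and 1.11 did not. The differences of -4.02 and -4.65 did not pass (adjusted p = 0.081 and 0.058), but did so without Vav1 DTX EC replicate 3 (-5.32 and -6.40, adjusted p = 0.019 and 0.0018), and for Csf3 also without irradiated replicate 1, the library at 10.3 FPKM while the other 2 were at 0. Metallothionein 1 (Mt1), which binds zinc, differed by -3.66 (SE 0.91, adjusted p = 0.014), with 207, 28.2 and 31.2 FPKM in irradiated bone EC, against 69.9, 77.5 and 68.9 FPKM in bone EC. It reached 989, 2743 and 827 FPKM in Vav1 DTX EC, against 130.5, 119 and 139 FPKM in Vav1 control EC. Csf3 and Saa3 were picked after their values were seen.

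Glycolytic genes leaned towards ablation, 7 of 20 having a lower irradiation than ablation response and 1 a higher one, against 13.1% and 13.7% of all genes. The median difference was -0.78. On the pan-endothelial scaling 12 had a lower irradiation than ablation response, against 4632 of the 13779 genes tested. Pgam1, a mutase of lower glycolysis, had opposite responses, with 14.2 to 21.4 FPKM in irradiated bone EC, against 28.9 to 35.2 FPKM in bone EC, and 84.8 to 160.5 FPKM in Vav1 DTX EC, against 58.9 to 64.9 FPKM in Vav1 control EC (difference -1.88, SE 0.32, adjusted p = 0.0023). The glucose transporter Slc2a1 was the 1 gene that went the other way, at 0.84 (adjusted p = 0.015; -0.15 on the pan-endothelial scaling, which did not pass). Eno1 and Gpi1, other glycolytic enzymes, differed by -1.30 and -1.69, and Vav1 DTX EC replicate 2, with the lowest neutrophil sum of its group, was the lowest of that group for Pgam1, Eno1 and Gpi1; the part of neutrophil content was not tested. Of the 12 mitochondrially encoded genes none differed, and 1 did without Vav1 DTX EC replicate 2. On the pan-endothelial scaling 6 of them had a lower irradiation than ablation response, against 4632 of the 13779 genes tested.

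Of 9 heme and iron genes 5 differed towards irradiation, against 13.7% of all genes. The median difference was 0.90, and -0.10 on the pan-endothelial scaling, beside 0.06 and -0.76 over all genes. The iron exporter Slc40a1 and Trf, the iron carrier of plasma, differed beside Spic and Cd163. Slc40a1 and Trf (1.63 and 1.30, adjusted p = 0.048 and 0.044) passed in only 3 and 2 of the 12 fits that left out 1 library each. Of 17 niche factors 6 differed towards irradiation and 1 away from it, against 13.7% and 13.1% of all genes (median 0.72, and -0.29 on that scaling). Against 13.7% and 13.1% of all genes, the counts higher and lower in the difference were 4 and 1 of 10 Notch pathway genes, 5 and 0 of 13 BMP and TGF-beta genes, 5 and 0 of 9 VEGF ligands and receptors, 3 and 0 of 7 sinusoidal genes, 3 and 1 of 13 arterial genes and 4 and 0 of 16 basement membrane genes. They were 5 and 0 of 15 immediate early genes. On the pan-endothelial scaling these counts were 279 and 4632 over the 13779 genes tested. They were 0 and 2 (Notch), 1 and 1 (BMP and TGF-beta), 0 and 2 (VEGF) and 0 and 0 (sinusoidal). For the rest they were 0 and 4 (arterial), 0 and 3 (basement membrane) and 0 and 5 (immediate early). As deposited they were 2 and 1 of 17 cholesterol synthesis genes, of which 5 fell in both, against 7.52% of all genes. Pan-leukocyte genes were lower in the difference in 9 of 14, and stem and progenitor genes in 3 of 10, against 13.1% of all genes. Among the latter the transcription factor Myb stood at -3.25 (adjusted p = 0.0029). Acute phase genes differed in 2 of 11 with irradiation higher and in 4 with it lower (median -2.89). Osteoblast genes differed in 2 and 1 of 8 and stromal genes in 2 and 0 of 9. For these 3 lists the shares of all genes were 13.7% and 13.1%. None passed among 5 mural, 2 cartilage, 4 sex-linked and 9 megakaryocyte genes. Of the 5 mural genes 1 was higher in the difference without Vav1 DTX EC replicate 2, and 3 were lower on the pan-endothelial scaling.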

How the data were processed

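Bulk RNA sequencing of sorted GFP+ bone cells was analysed in 12 libraries, 3 in each of 4 groups. The authors deposited FPKM values, read counts scaled to gene length and library size, in one table for the irradiated and bone EC libraries and another for the Vav1 libraries, each normalized separately. Per the labels' protocols, libraries were made with SMART-Seq v4 and Nextera XT kits, which do not mark strand. Per the submitters' processing notes the tools were bcl2fastq 2.19.1.403, TopHat2 2.1.1, HTSeq 0.6.1 and DESeq2 1.18.1 on mm10. Their settings are not given in the sources used here. 27 gene names turned into dates were left out, and no column lacked a sample.

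From these values log2(FPKM + 1) was computed, which understates the change of low genes. limma 3.58.1 (R 4.3.3, with version 1.17.8 of the data.table package) was fitted to all 12 libraries with 1 mean per group, a variance trend and moderated variances, and the contrasts were the irradiation response, the ablation response and their difference. Benjamini-Hochberg adjusted p below 0.05 over the 13779 genes counted as passing, and shared genes passed in both responses. An exact two-sided permutation p of 3 against 3 libraries is at least 0.1, so none was used. Reads were recovered from the FPKM steps as whole numbers, within 0.02 of a read, for 100.0% of the 23260 genes above 0. For 12568 of these the exon length of the annotation gave whole numbers. For the others a length that did so was searched for, so the 100.0% is not a check of their read counts. An alternative fit used voom on the recovered reads. A simulation was run once, with normal noise of the same spread in all 4 groups of a gene. In it 200 of 13779 genes were changed, drawn from genes with a mean of at least 5 FPKM. The test of the difference found 28% of changes of 1 and 90% of changes of 2 on the log2 scale. Of its 123 calls 4.1% were false. The simulation held no outlying library like Vav1 DTX EC replicate 2, and far fewer changed genes than were called in the data. These rates therefore may not hold for the data. Plots were drawn and summaries made with Python 3.11.15, pandas 2.3.3, numpy 2.4.6 and matplotlib 3.10.9.

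The comparison, its named genes and the 37 gene lists were chosen with earlier results of these data known. Genes were named from the 10 largest differences in each direction, the 10 largest genes higher and lower in both, the largest opposite ones, up to 4 differing and 4 shared members of each list, and a few identity genes, with a mean of at least 5 FPKM in some group. Genes named outside that rule, such as Isg15, Irgm1, Irgm2, Tgtp1, Oasl2, Psmb9, Prf1, Nkg7, Ly6c2, Csf3 and Saa3, were chosen after their values were seen. Gene positions are GRCm38 (GENCODE vM21), matched by symbol for 512 of the 515 genes named or listed, 142 of which overlap another gene, and without strand the reads of overlapping genes cannot be told apart. The alternatives were 12 changes of pseudocount, filter, scaling, model or block, and leaving out each of the 12 libraries.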

Additional observations from a re-analysis of the deposited data

How the results depend on the processing

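The count of genes whose responses differ, 3684, ran from 2488 to 4995 when each library was left out in turn. The count higher in both, 415, ran from 214 to 486, that lower in both, 1036, from 812 to 1100, and that of opposite responses, 268, from 158 to 561. The irradiation response passed in 4964 to 6743 genes and the ablation response in 2124 to 3488. Rescaling to TPM gave 1260 genes higher in both, and fitting each response on its own 6 libraries gave 250. The filter on a mean of at least 5 FPKM left 654 genes lower in both and 4044 passing the irradiation response, in a smaller set of genes. Scaling to the pan-endothelial level gave 4911 genes whose responses differ, 55 higher in both, 60 opposite, 9748 in the irradiation response and 1746 in the ablation response.

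The deviations of same-numbered libraries from their group means had correlations of mixed sign. These were -0.141, 0.243 and 0.182 in the irradiation table and 0.131, -0.031 and -0.195 in the Vav1 table. Differently numbered libraries were not compared, so these values cannot tell whether the numbers pair the libraries. With the replicate block 2399 genes differed, 248 were higher in both, 894 lower in both and 166 opposite.

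Of 850 list medians under the alternatives 45 changed sign, 30 of them in 5 lists whose median was within 0.1 of 0 (leukocyte adhesion, cholesterol, fatty acid uptake, B lymphoid and monocyte). On the pan-endothelial scaling the medians were -0.15 (pan-endothelial), -0.65 (arterial), -0.25 (tip cell), -0.15 (Notch), -0.32 (BMP and TGF-beta), -0.29 (niche), -0.37 (basement membrane), -0.10 (heme), -0.66 (immediate early), -0.09 (megakaryocyte), -0.85 (leukocyte adhesion), -0.92 (cholesterol) and -0.89 (monocyte), the mean level of the pan-endothelial list being fixed by the scaling. Over all genes tested the median on that scaling was -0.76. The megakaryocyte median was also -0.17 with a pseudocount of 0.1 and -0.01 with voom, and the mural median 0.19 with the mean filter. With each library left out, the mural median ran from -0.63 to 0.01 (without Vav1 DTX EC replicate 2) and the arterial median from -0.17 (without Vav1 DTX EC replicate 1) to 0.31. Single values that changed sign on the pan-endothelial scaling were the irradiation responses of Tnfrsf10b (-0.04), Cd163 (-0.23), Cd3e (-0.11), Oasl2 (-0.37), Psmb9 (-0.64) and Prf1 (-0.02), and the differences of Cdh5 (-0.12), Bax (-0.20), Oas2 (-0.03) and Slc2a1 (-0.15). The cause of these moves was not tested, beyond the smaller sets and the scaling itself. Depth was lower in the irradiated and bone EC libraries than in the Vav1 libraries, which limits low genes there.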
